A study of Rattus norvegicus with 12 samples.

Results

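Chemokines and their receptors form the gene family described here, in the colon of rats fed for 6 weeks with either normal or high protein. The members were all genes on the array whose printed gene name begins with Ccl, Cxcl, Cx3cl, Xcl, Ccr, Cxcr, Cx3cr, Xcr or Ackr and a digit, whatever their values. They came to 54 of 26478 genes or unnamed probes, carried by 60 probes and 96 of the 42877 gene spots. They comprised 34 ligands and 20 receptors. The question was whether genes that steer leukocyte migration (chemotaxis) differed between the diets.

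Chemokines are small secreted proteins that attract leukocytes along a concentration gradient. They are named by the spacing of their first cysteines (CC, CXC, CX3C or C), and they act through receptors that couple to inhibitory G proteins. Atypical receptors such as Ackr3 bind chemokines without that coupling and remove them. In the gut, epithelium, stroma and leukocytes each make their own chemokines, some constantly and some only under inflammatory stimuli.

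The samples were labelled as colonic epithelium of male Wistar rats. The animals weighed 180 to 200 g, and no other treatment, genotype or age was given for either diet. Each diet had 6 replicates, with 1 single-colour array for each. The labels do not say which replicates came from separate animals, so p-values measure only the spread between these samples. That may not be the spread between animals. The 12 arrays lay on 3 slides, with 2 arrays of each diet on every slide. The share of gene spots flagged good by the scanner software was lowest at 42.67% (normal protein replicate 3) and highest at 55.86% (high protein replicate 3). All 16 epithelial marker genes on the array, Epcam, Krt8 and Cdh1 among them, passed the filter on dim probes. At an unadjusted limma p under 0.05, 1 of the 16 was lower on high protein, where 2.93% of all genes tested were. It was Cdx2, an intestinal transcription factor, at -0.44 ± 0.20 (SE), and the list's median was -0.10. All 11 smooth muscle markers and 11 of 12 fibroblast markers passed as well. In such bulk RNA, fewer cells of a type and less RNA per cell cannot be told apart.

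Many of the 54 genes gave no signal above background. The filter, blind to diet, asked for a good flag on 0.5 or more of a probe's spots in 6 or more arrays. This held for 25 genes, 19 ligands and 6 receptors. Of the other 29 genes, 25 were flagged good on 0 arrays and 4 on 1 to 4 arrays. On the whole array 11961 of 26478 genes or unnamed probes passed, a share close to that of the members. Just inside the limit, Ccl19, Ccl27 and Cxcl11 were flagged good on 6 arrays. Just outside it, Cxcl9 was flagged good on 4 arrays, 2 of each diet. The number of member genes flagged good per array was 20, 24, 20, 22, 25 and 22 in normal protein replicates 1 to 6, and 24, 21, 22, 20, 21 and 23 in high protein replicates 1 to 6. The diets overlapped in this number.

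**Figure D1:**
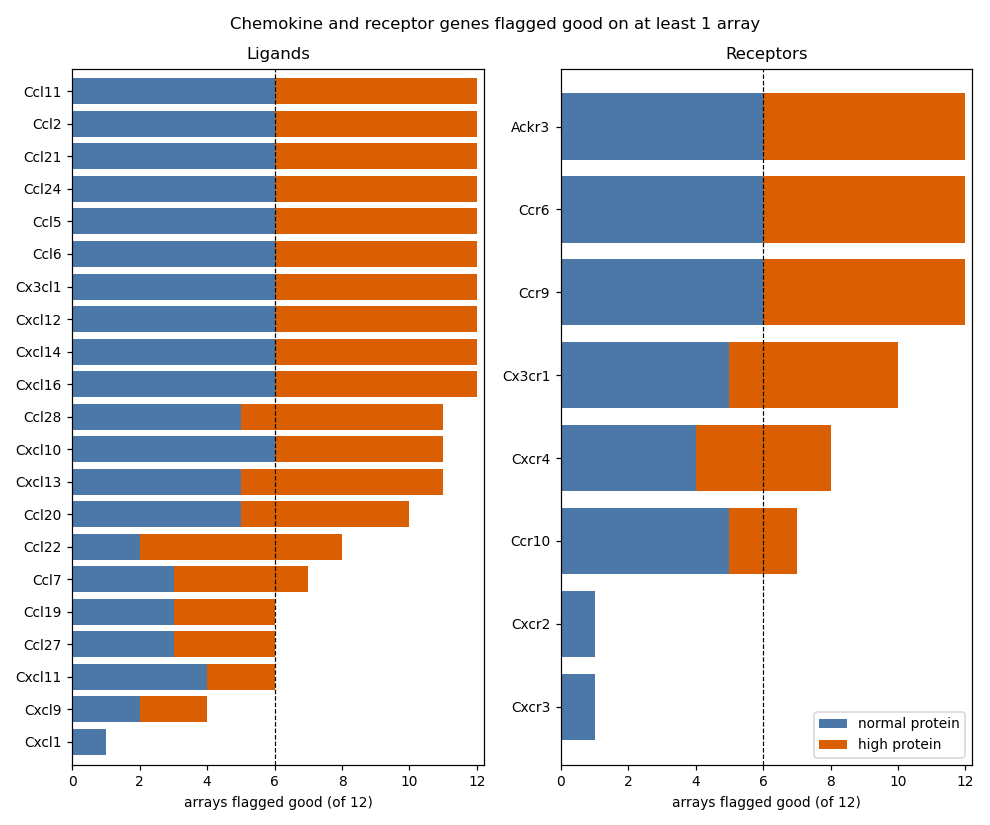
Number of arrays, out of 12, on which each ligand or receptor gene was flagged good, split by diet (blue, normal protein; orange, high protein), for the 29 genes flagged good on at least 1 array. The dashed line marks the 6 arrays needed to pass the filter, which 19 ligands and 6 receptors reached.

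For several ligand and receptor pairs only the ligand passed the filter. Ccl5 was flagged good on 12 arrays, and Ccr1 and Ccr3, which bind it, on 0. The same held for Cxcl16 and its receptor Cxcr6, for Ccl21 and its receptor Ccr7, and for Ccl2 and its receptor Ccr2. The eotaxins Ccl11 and Ccl24, which attract eosinophils, were flagged good on 12 arrays, and their receptor Ccr3 on 0. Cxcl13, which draws B cells into follicles, was flagged good on 11 arrays and its receptor Cxcr5 on 0. Cxcr3, the receptor of Cxcl9, Cxcl10 and Cxcl11, was flagged good on 1 array. The reverse was seen for Ccr9, flagged good on 12 arrays, whose ligand Ccl25, a homing signal of the small intestine, was flagged good on 0. Ligand and receptor both passed for Cx3cl1 with Cx3cr1, Cxcl12 with Cxcr4 and Ackr3, Ccl20 with Ccr6, and Ccl27 and Ccl28 with Ccr10.

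None of the neutrophil-attracting CXC ligands passed the filter. Cxcl2, Cxcl3 and Cxcl6 (the array's Cxcl5) were flagged good on 0 arrays. Cxcl1 was flagged good in normal protein replicate 3 alone, where its 10 spots stood at 73 to 91 intensity units above background, against medians of 6.5 to 22.5 in the other 11 arrays. Their receptors Cxcr1 and Cxcr2 were flagged good on 0 arrays and 1 array. The median signal minus local background of the 29 genes below the filter was between 2 and 24 intensity units, against 39.2 to 5320 for the 25 that passed. Neighbours in the genome (gene order in RefSeq, GRCr8) were not all flagged alike. Of the 5 neighbours Ccl5, Ccl9, Ccl6, Ccl3 and Ccl4, Ccl5 and Ccl6 passed.

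The members of highest mean signal were Cxcl14, Ccl24 and Cx3cl1. Levels of different genes also depend on their probes and are not compared. All levels are normalized log2 intensities. Cxcl14, a ligand made constantly by epithelia, ran from 11.32 to 13.07 (median 12.47) on normal protein and from 12.07 to 12.88 (median 12.37) on high protein. Ccl24 ran from 10.86 to 11.37 (median 10.94) and from 10.60 to 11.25 (median 10.87) in the same order. Cx3cl1, a ligand held in the cell membrane, ran from 10.19 to 11.32 (median 10.74) on normal protein and from 10.29 to 11.30 (median 10.91) on high protein. In each of these 3 genes the diets overlapped, and for Cxcl14 the high-protein range lay within the normal-protein range.

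**Figure D2:**
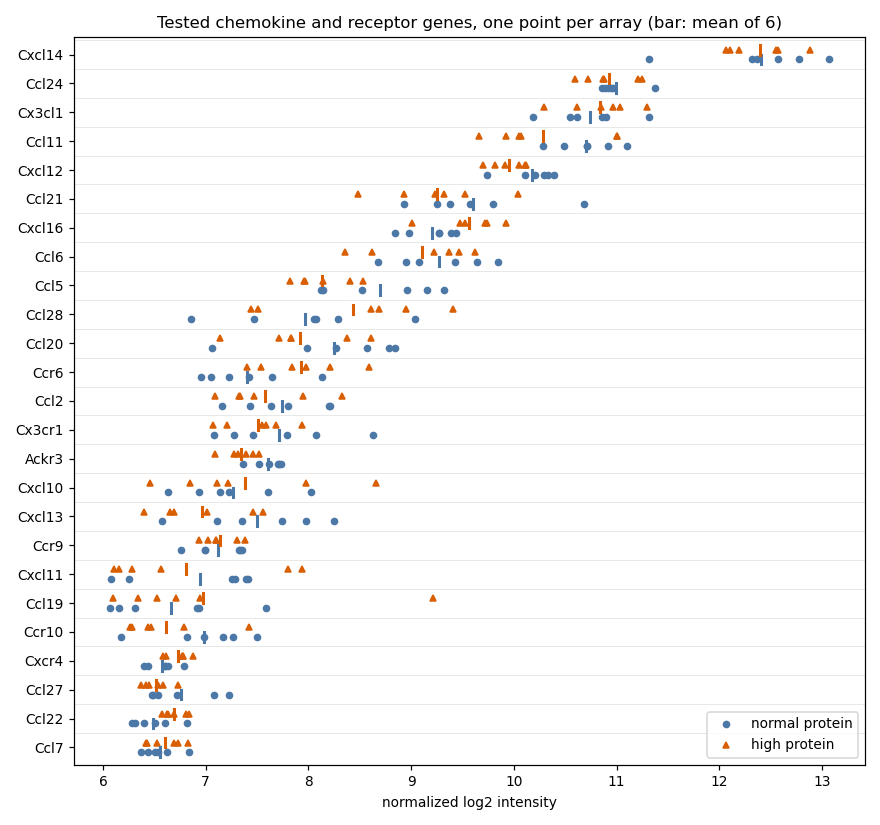
Normalized log2 intensity (x axis) of the 25 chemokine and receptor genes that passed the filter, with 1 point per array (blue circles, normal protein; orange triangles, high protein) and a bar at the mean of 6 arrays. The diets overlap in all 25 genes, and Ccl19 has a single high-protein array at 9.21.

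None of the 25 genes passed the threshold for a diet difference (limma, Benjamini-Hochberg adjusted p under 0.05 over all 11961 genes tested). Over all of these genes 0% were called, and no adjusted p was below 0.72. An unadjusted limma p under 0.05 was found for 4 of the 25 genes, or 16%, against 796 genes or 6.65% of all tested. Of these, Ackr3 and Ccl5 had lower values on high protein and Cxcl16 and Ccr6 higher ones, where the shares over all genes were 2.93% lower and 3.73% higher. The diets overlapped in all 25 genes, and 0.376% of all genes tested had diets that did not overlap. These counts describe the genes that passed the filter and not all 54.

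Differences are given as high protein minus normal protein on the log2 scale. They lay between -0.57 and 0.52, with 15 below 0 and 10 above. Of all genes tested, 48.4% lay below 0. The median over the members was -0.14, against 0.01 over all genes tested, and 0 members were 2-fold or more apart. The member median was -0.03 without high protein replicate 5, -0.00 with arrays scaled to their medians, and -0.07 with the median over the spots of a probe. For 20 of the 25, the 95% interval of the difference, not adjusted for the number of genes, lay within 2-fold either way. The background offset of 50 shrinks the fold of dim genes, so these bounds hold for values with the offset. With median scaling the median of all genes moved to 0.10, and 2 members, both higher, had an unadjusted limma p under 0.05. With scaling to the 75th percentile, 1 higher member (Cxcl16) and 4 lower members (Ackr3, Ccl5, Ccl27 and Cxcl13) had one. The count ran from 2 without high protein replicate 5 to 6 without high protein replicate 3.

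**Figure D3:**
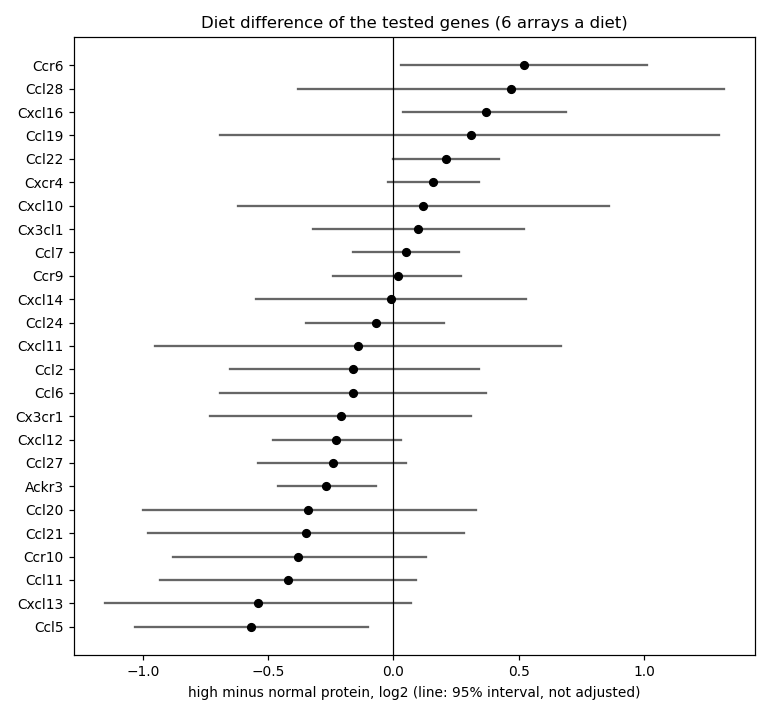
Difference between diets (high minus normal protein, log2) of the 25 tested genes, as points with 95% intervals that are not adjusted for the number of genes. The points run from -0.57 for Ccl5 to 0.52 for Ccr6, and 15 lie below 0.

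Ccl5 (RANTES), which attracts T cells, monocytes and eosinophils, had the lowest difference of the 25 tested genes. This rank changed with the processing. With signal minus local background, Cxcl13 at -0.87 and Ccr10 at -0.76 lay below Ccl5 at -0.67. Ccl5 ran from 8.12 to 9.32 (median 8.74) on normal protein and from 7.82 to 8.53 (median 8.06) on high protein. All 6 high-protein arrays lay below the normal-protein mean, while 3 normal-protein arrays (replicates 1, 3 and 5) lay within the high-protein range. The means were 8.70 ± 0.52 (SD, n = 6) on normal protein and 8.14 ± 0.28 (SD, n = 6) on high protein. They differed by -0.57 ± 0.22 (SE), a ratio of 0.676, with a limma adjusted p of 0.72. Within slides 1, 2 and 3 Ccl5 differed by -0.35, -0.46 and -0.88. Among markers of cells that make Ccl5, 7 of 18 T and NK cell genes passed the filter, and Cd3e, Cd2 and Cd8a were flagged good on 0 arrays. Of the 7, 5 lay below 0, against 48.4% of all genes tested. Only Prf1, a pore-forming killing protein, was lower at an unadjusted limma p under 0.05, at -0.26 ± 0.10 (SE). Over all genes tested 2.93% were lower. The summed linear level of the 7 ran from 959 to 1390 on normal protein and from 871 to 1230 on high protein. Their part in the Ccl5 result was not tested.

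Ackr3 (Cxcr7 on the array), the scavenging receptor of Cxcl12 and Cxcl11, had the smallest unadjusted limma p of the 25 tested genes. It ran from 7.36 to 7.73 (median 7.66) on normal protein and from 7.09 to 7.52 (median 7.35) on high protein. Every high-protein array lay below the normal-protein mean, and the ranges overlapped between 7.36 and 7.52. Ackr3 differed by -0.27 ± 0.09 (SE, limma adjusted p of 0.72), and by -0.26, -0.25 and -0.29 within the slides. Its ligand Cxcl12, which retains cells near stroma, ran from 9.74 to 10.39 (median 10.25) on normal protein and from 9.70 to 10.12 (median 9.98) on high protein. Here too all 6 high-protein arrays lay below the normal-protein mean, at a difference of -0.23 ± 0.12 (SE, limma adjusted p of 0.74). A second Cxcl12 probe differed by -0.40. With median scaling Cxcl12 differed by -0.06. Cxcr4, the signalling receptor of Cxcl12, lay on the other side of 0 at 0.16 ± 0.08 (SE) and was flagged good on 4 arrays of each diet. Among stromal markers, all 11 smooth muscle genes and 7 of 11 fibroblast genes were below 0, against 48.4% of all genes tested. The list medians were -0.17 and -0.05, and 4 fibroblast genes lay above 0, Pdgfra highest at 0.16 ± 0.17 (SE). Of each list 1 gene was lower at an unadjusted limma p under 0.05, where 2.93% of all genes tested were. These were Pln (phospholamban) at -0.74 ± 0.28 (SE) and Lum (lumican) at -0.47 ± 0.18 (SE). The summed fibroblast level ran from 18700 to 30000 on normal protein and from 18500 to 25500 on high protein. The summed smooth muscle level ran from 60600 to 84100 on normal protein and from 39700 to 82700 on high protein. Their part in the Cxcl12 and Ackr3 differences was not tested.

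Cxcl16, a membrane-bound ligand that also acts as a scavenger receptor, lay on the high side. It ran from 8.84 to 9.44 (median 9.27) on normal protein and from 9.01 to 9.92 (median 9.62) on high protein. In 5 of 6 high-protein arrays it was above every normal-protein array, and high protein replicate 1 fell below the normal-protein median. Cxcl16 differed by 0.37 ± 0.15 (SE), a ratio of 1.29, with a limma adjusted p of 0.73. Within the slides it differed by 0.04, 0.71 and 0.34.

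Ccr6, which guides lymphocytes and dendritic cells towards Ccl20, had the highest difference of the 25 tested genes. This rank changed with the processing: with median scaling Ccl28 was at 0.60 and Ccr6 at 0.59. Ccr6 ran from 6.95 to 8.13 (median 7.32) on normal protein and from 7.40 to 8.59 (median 7.91) on high protein. Most high-protein arrays lay above the normal-protein mean, 5 of 6, and normal protein replicate 2 was higher than 4 of them. Ccr6 differed by 0.52 ± 0.23 (SE), a ratio of 1.44, with a limma adjusted p of 0.74, and by 0.64, 0.60 and 0.33 within the slides. Its ligand Ccl20 lay on the other side of 0, at -0.34 ± 0.31 (SE), and a second Ccl20 probe differed by -0.28.

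**Figure D4:**
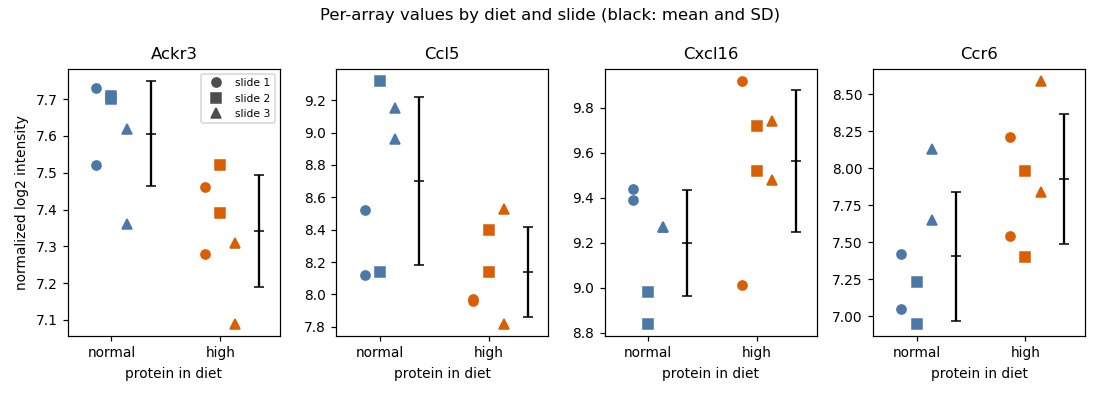
Normalized log2 intensity (y axis, a separate range in each panel) of Ackr3, Ccl5, Cxcl16 and Ccr6 in each array by diet, with the slide as marker shape and the mean ± SD of 6 arrays in black. Ackr3 and Ccl5 have lower means and Cxcl16 and Ccr6 higher means on high protein, and the diets overlap in all 4 panels.

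None of the other CC ligands passed the threshold. Among ligands of inflammation, Ccl2 differed by -0.16 ± 0.23 (SE), Ccl6 by -0.16 ± 0.25 (SE) and Ccl7 by 0.05 ± 0.10 (SE). Ccl3, Ccl4, Ccl9 and Ccl12 of this group were flagged good on 0 arrays. The eotaxin Ccl11 ran from 10.28 to 11.10 (median 10.71) on normal protein and from 9.66 to 11.00 (median 10.06) on high protein. High protein replicates 3 and 4 were both at 11.00 and the other high-protein arrays at 10.07 or lower, for a difference of -0.42 ± 0.24 (SE, limma adjusted p of 0.74). Ccl24, the second eotaxin, differed by -0.07 ± 0.13 (SE), and by 0.10 with median scaling. Ccl26, another eotaxin, was flagged good on 0 arrays.

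Ccl22, which attracts T cells that carry Ccr4, was flagged good on 6 high-protein arrays and 2 normal-protein ones. It thus passed the filter through high protein, and 4 of its 6 normal-protein values were not well above background. It ran from 6.28 to 6.82 (median 6.46) on normal protein and from 6.57 to 6.84 (median 6.66) on high protein. All 6 high-protein arrays lay above the normal-protein mean, with 2 normal-protein arrays inside their range. The difference of 0.21 ± 0.10 (SE, limma adjusted p of 0.74) rests on those dim values. Its partner Ccl17 and the receptor Ccr4 were flagged good on 0 arrays.

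Ligands that organise lymphoid tissue varied widely within each diet. Cxcl13 ran from 6.57 to 8.25 (median 7.55) on normal protein and from 6.40 to 7.56 (median 6.85) on high protein, a difference of -0.54 ± 0.28 (SE, limma adjusted p of 0.74). Within the slides Cxcl13 differed by -0.10, -0.84 and -0.68. Ccl21, which guides naive T cells and dendritic cells, differed by -0.35 ± 0.29 (SE). It was highest in normal protein replicate 1, at 10.68, and without that array it differed by -0.13. Ccl19, the other ligand of Ccr7, was at 9.21 in high protein replicate 1 and between 6.07 and 7.59 in the other 11 arrays. Its difference of 0.31 ± 0.46 (SE) became -0.14 without that array. Of the B and plasma cell markers, 6 of 12 passed the filter and 5 of these lay below 0, against 48.4% of all genes tested. Their summed level ran from 1660 to 2210 on normal protein and from 1220 to 2250 on high protein, and their part in these results was not tested.

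Ligands of mucosa and skin were divided. Ccl28, an epithelial ligand that attracts antibody-secreting cells through Ccr10, differed by 0.47 ± 0.39 (SE). Ccr10 itself differed by -0.38 ± 0.23 (SE) and was flagged good on 5 normal-protein and 2 high-protein arrays. It thus passed the filter through normal protein, and most of its high-protein values were not well above background. The Ccr10 difference rests on those dim values. Ccl27 had a difference of -0.24 ± 0.14 (SE) that rested on 2 aberrant spots. Its probe was printed on 10 spots. In normal protein replicate 4 a single spot stood at 23720 intensity units above background where the next highest was at 53, and replicate 5 of that diet had a spot at 5725 where the next was at 57. With the median over the 10 spots in place of their mean, an alternative added after the data were seen, Ccl27 differed by -0.03. Ccl25 and Cxcl17 were flagged good on 0 arrays.

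Interferon-induced ligands had diet differences smaller than their SE and varied widely between arrays. Cxcl10 ran from 6.63 to 8.03 (median 7.18) on normal protein and from 6.46 to 8.66 (median 7.17) on high protein. Cxcl11 ran from 6.08 to 7.41 (median 7.27) and from 6.11 to 7.94 (median 6.42) in the same order. Their differences were 0.12 ± 0.34 (SE) and -0.14 ± 0.37 (SE). Cxcl11 was flagged good on only 4 normal-protein and 2 high-protein arrays. Of the remaining members, Cxcl14 differed by -0.01 ± 0.25 (SE), Cx3cl1 by 0.10 ± 0.19 (SE), its receptor Cx3cr1 by -0.21 ± 0.24 (SE) and Ccr9 by 0.02 ± 0.12 (SE). The sign of 3 members (Ccl7, Ccr9 and Cxcl14) turned with 75th percentile scaling, and that of Ccl24 and Cxcl14 with median scaling.

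The arrays also differed in genes that mark position along the colon, whatever their diet. Hoxb13 marks the distal colon and Hoxb6 and Hoxb7 more proximal gut. A position score, taken as Hoxb13 less the average of Hoxb6 and Hoxb7 (log2), lay between 4.87 and 5.57 in 2 normal-protein arrays (replicates 1 and 2) and 4 high-protein ones (replicates 1, 2, 5 and 6). It was 1.71, -1.06, 2.40 and -4.44 in normal protein replicates 3 to 6, and -4.72 and -3.15 in high protein replicates 3 and 4. Since the arrays form separate groups on this score, slopes on it are given as descriptions without p-values, from a limma fit that also held diet.

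Ccl28 was higher in the arrays of high score, and Cxcl11 was flagged good only in arrays of lower score. Cxcl11 was between 7.26 and 7.94 in the 6 arrays of lower score, and these were the 6 arrays on which it was flagged good. In the 6 arrays of high score it was not flagged good, and its values of 6.08 to 6.56 there were not well above background. It passed the filter through the arrays in which it is high, so no slope is given for it. Ccl28, flagged good on 11 arrays, was between 8.29 and 9.41 in the 6 arrays of high score and between 6.86 and 8.07 in the others. Its slope was 0.16 ± 0.02 (SE) per unit of score. Ccl6 followed with a slope of 0.09 ± 0.02 (SE) and Ccl5 with -0.07 ± 0.02 (SE). Ccl28 and Ccl6 were named for steep slopes in these same values. The median size of slope was 0.02 over the tested members and 0.01 over all genes tested. The share of all genes that separate by score like Ccl28 is not given. With the score in the fit, the diet difference of Ccl5 was -0.51 ± 0.16 (SE), that of Ackr3 -0.27 ± 0.09 (SE), that of Cxcl16 0.36 ± 0.15 (SE) and that of Ccr6 0.54 ± 0.23 (SE). The diet difference of Ccl28 was 0.34 in that fit in place of 0.47. That of Ccl11 was -0.37 in place of -0.42, with a slope of -0.06 ± 0.03 (SE), looked up after its values were seen. High protein replicates 3 and 4, of low score, were the arrays of that diet with Ccl11 at 11.00. Normal protein replicate 6, also of low score, had the lowest Ccl11 of its diet at 10.28. With the score in the fit, 0 members passed the adjusted threshold.

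**Figure D5:**
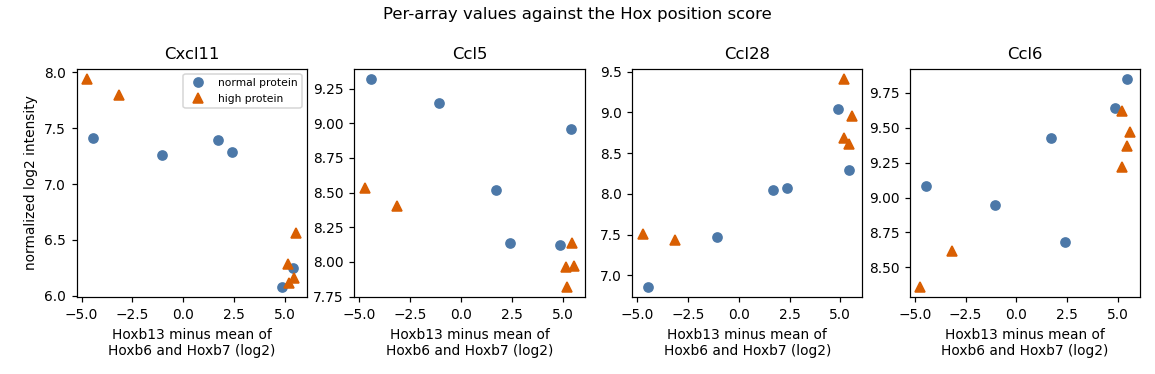
Normalized log2 intensity (y axis, a separate range in each panel) of Cxcl11, Ccl5, Ccl28 and Ccl6 against the position score (x axis, log2 difference) in each array (blue circles, normal protein; orange triangles, high protein). Cxcl11 lies at 7.26 or above in the 6 arrays of lower score and was not flagged good in the 6 arrays of high score, while Ccl28 is highest in the arrays of score 4.87 or more.

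Cxcl11, Cxcl10 and Cxcl9 are neighbours in the genome, and the slope of Cxcl10, flagged good on 11 arrays, was -0.02 ± 0.04 (SE). Cxcl10 was at 8.66 in high protein replicate 2, where the score was 5.57 and Cxcl11 stood at 6.56. The promoters of this pair are shown beside those of Ccl28 and Cxcl16. They are the 250 bases before the annotated gene start, from RefSeq on GRCr8, written 5′ to 3′ on the gene's strand. RefSeq promoters were matched by symbol for 41 of the 54 genes. Capitals mark matches, on either strand, to any of 4 motifs: NF-kB (GGGA, any 4 bases, CC), the interferon response element ISRE (GAAA, any 2 bases, GAAA), the TATA box (TATAAA) and the core bound by CDX factors (TTTATG).
Cxcl11 (chr14:15973478-15973727, + strand): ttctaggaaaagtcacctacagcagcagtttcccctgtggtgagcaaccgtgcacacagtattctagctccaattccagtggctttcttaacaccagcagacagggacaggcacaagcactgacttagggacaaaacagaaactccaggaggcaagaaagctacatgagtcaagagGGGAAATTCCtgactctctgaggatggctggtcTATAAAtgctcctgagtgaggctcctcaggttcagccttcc
Cxcl10 (chr14:15988816-15989065, + strand): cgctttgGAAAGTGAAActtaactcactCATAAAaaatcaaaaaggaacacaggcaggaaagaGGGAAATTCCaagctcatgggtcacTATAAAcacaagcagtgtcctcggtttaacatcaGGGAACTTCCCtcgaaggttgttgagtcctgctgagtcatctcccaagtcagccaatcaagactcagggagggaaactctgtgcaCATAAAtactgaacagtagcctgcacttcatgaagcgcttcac
Ccl28 (chr2:53333821-53334070, + strand): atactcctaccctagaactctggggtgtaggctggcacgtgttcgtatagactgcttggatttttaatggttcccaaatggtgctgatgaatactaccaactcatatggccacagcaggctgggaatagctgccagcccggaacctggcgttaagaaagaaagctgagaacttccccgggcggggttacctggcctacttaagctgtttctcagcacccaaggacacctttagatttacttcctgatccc
Cxcl16 (chr10:55669951-55670200, - strand): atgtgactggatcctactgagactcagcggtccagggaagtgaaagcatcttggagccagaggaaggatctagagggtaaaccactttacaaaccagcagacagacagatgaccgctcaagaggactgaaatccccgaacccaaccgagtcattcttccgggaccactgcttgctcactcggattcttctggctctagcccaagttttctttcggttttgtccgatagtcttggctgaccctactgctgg

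The Cxcl11 window held an NF-kB match that starts 74 bases before the gene start and a TATA match at 41. The Cxcl10 window held 3 NF-kB matches, which start at 187, 128 and 127, the last 2 overlapping on opposite strands. It also held an ISRE match at 243, a TATA match at 162 and CDX core matches at 222 and 43. None of the 4 motifs was found in the windows of Ccl28 and Cxcl16. Over the 33469 RefSeq promoter windows of this length, 16.4% held the NF-kB motif, 3.41% ISRE, 12.9% TATA and 11.4% the CDX core. Of the 41 member promoters, 16 held the NF-kB motif, 2 ISRE, 12 TATA and 9 the CDX core. A match describes letters and not binding.

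None of the other genes of chemotaxis passed the adjusted threshold. Of 72 further genes on the array that act as attractants, receptors or in the signalling behind them, 48 passed the filter, and their median difference was -0.07. At an unadjusted limma p under 0.05, 1 was higher and 3 were lower on high protein. Over all genes tested 3.73% were higher and 2.93% lower, and counts this small are not read as a result about the list. Of the 48, 34 lay below 0, against 48.4% of all genes tested. Grk2, the kinase that switches off chemokine receptors, was the higher gene at 0.19 ± 0.08 (SE). The lower genes were Rarres2 (chemerin, an attractant for dendritic cells and macrophages) at -0.60 ± 0.27 (SE), and Cmtm6 and Cmtm8 of the chemokine-like factor family at -0.21 ± 0.08 (SE) and -0.35 ± 0.15 (SE). The platelet chemokine Pf4 (Cxcl4), which falls outside the naming rule, differed by -0.10 ± 0.19 (SE).

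No inducer of chemokines passed either. Of 25 such cytokines, receptors and transcription factors on the array, 16 passed the filter, with a median difference of 0.06. Ikbkb, a kinase that activates NF-kB, was at 0.20 ± 0.07 (SE), and Il17ra, the interleukin-17 receptor, at 0.23 ± 0.10 (SE). These 2 of the 16 were the higher genes at an unadjusted limma p under 0.05, and 0 were lower. Over all genes tested 3.73% were higher and 2.93% lower. Irf7, a transcription factor of the interferon response, had the lowest difference at -0.82 ± 0.42 (SE). Il6, Il17a, Il22 and Ifng were flagged good on 0 arrays and Tnf on 4. Of 17 genes that anchor or cleave chemokines, 11 passed the filter and 0 had an unadjusted limma p under 0.05 in either direction. Their median difference was -0.03, and Sdc1, a heparan sulfate proteoglycan, differed by -0.25 ± 0.13 (SE).

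Leukocyte markers set beside the family lay mostly below 0, and so did 13 of 16 epithelial and all 11 smooth muscle markers. Over all genes tested 48.4% lay below 0. These counts hold for quantile-normalized values, and with median scaling the median of all genes moved to 0.10. Of 19 macrophage and dendritic cell genes, 13 passed the filter, 12 of these lay below 0 and the median was -0.28. Csf1r and Itgam were lower at an unadjusted limma p under 0.05, at -0.38 ± 0.09 (SE) and -0.36 ± 0.12 (SE), with 0 genes past the adjusted threshold. These were 2 of the 13, where 2.93% of all genes tested were lower. The summed level of the list ran from 19600 to 25900 on normal protein and from 14200 to 30600 on high protein. Mrc1, Itgax, Mpeg1 and Cybb were flagged good on 0 arrays. All 7 mast cell genes that passed, of 10, lay below 0, with summed levels of 1470 to 4710 on normal protein and 1470 to 3210 on high protein. For the endothelial list, 8 of 12 genes passed and the median was -0.05, with summed levels of 3750 to 7680 and 4120 to 6430. Of 12 neutrophil genes 2 passed, S100a9 at 0.51 ± 0.24 (SE) and Retnlg at -0.57 ± 0.49 (SE), and Csf3r was flagged good on 0 arrays. The part of these cell types in the chemokine values was not tested.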

How the data were processed

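Each sample was hybridised to a single-colour Agilent whole rat genome array after Cy3 labelling, per the labels' protocols. Per the file headers, spots were measured with GenePix Pro without normalization. The deposited files hold the mean pixel intensity of a spot, the intensity of its local background, the percent of saturated pixels and other values such as spot flags. A deposited value table holds log2 values made by the authors. RMA is the tool listed in the submitters' processing notes, without its role. The table's IDs were displaced by 1 row: as given they correlated with the scanner values at 0.027 or less, and moved by 1 row at 0.962 or more over 7295 bright probes. So moved it served as an alternative, its centring unknown. Its column medians were 4.40, 4.45, 4.43, 4.40, 4.43 and 4.36 for normal protein replicates 1 to 6, and 4.41, 4.40, 4.39, 4.41, 4.40 and 4.41 for high protein replicates 1 to 6.

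Intensities were background corrected with normexp (offset 50), log2 transformed and quantile normalized. Controls were left out after the background step, spots of a probe averaged, and the brightest tested probe taken for a gene. RefSeq accessions of the GRCr8 gene table matched 18528 of 23596 probes with an accession. The diet fit used limma 3.58.1 (R 4.3.3) over all 11961 genes and was tested on simulated data. The members and gene lists were chosen with earlier results of these data known. Named were Ccl5 and Cxcl16, members at an unadjusted limma p under 0.05 or at least 3 a side by p, the 3 of highest mean signal and the 3 of steepest slope. Other members are given by role, and of each further list up to 2 genes a side by p. Genes outside this rule (one of the lower chemotaxis genes, Pf4 and markers flagged good on few or 0 arrays) were named after their values were seen. No pair of arrays held identical values. An item withheld for evaluation is not reported here. The number of arrays limits the precision.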

Additional observations from a re-analysis of the deposited data

Results flagged for a closer look

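In 2 of the 50 sets of 6 arrays (25 genes in each diet), a single array stood apart from the others of its diet by Dixon's criterion. Chance flags about 1 set in 20, which here is 2.5 sets. Ccl19 was at 9.21 in high protein replicate 1, where the next array was at 6.94. Ccl24 was at 11.37 in normal protein replicate 3, where the next array was at 10.97 and the lowest at 10.86.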

How the results depend on the processing

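No alternative called a member: the 11 planned fits, the median over spots added after the data were seen, and the fits without each array in turn all gave 0 members, and 0 of all genes, past the adjusted threshold. The count of members at an unadjusted limma p under 0.05 was 2 with median scaling and ran from 2 to 6 with arrays left out. Turned signs were those of Ccl7, Ccr9 and Cxcl14 with 75th percentile scaling (-0.11, -0.06 and 0.06), of Ccl24 and Cxcl14 with median scaling (0.10 and 0.19), and of Ccl27 in the value table (0.25), whose own treatment of the aberrant spots is not given in the sources used here. The cause of the others was not tested. Within slides, signs also turned for Ccl6 in slide 1 (0.01), for Ccl19, Ccl21, Ccl6, Ccl7 and Cxcl14 in slide 2 (-0.44, 0.05, 0.11, -0.11 and 0.32), and for Ccl24, Ccr9, Cx3cl1, Cxcl10 and Cxcl11 in slide 3 (0.07, -0.18, -0.23, -0.25 and 0.27). With single arrays left out, Ccl19 ran from -0.14 to 0.49, Ccl24 from -0.14 to 0.00, Ccr9 from -0.06 to 0.06, Cx3cl1 from -0.01 to 0.22, Cxcl10 from -0.14 to 0.30, Cxcl11 from -0.36 to 0.00 and Cxcl14 from -0.23 to 0.12. Without turning sign, Cx3cr1 ran from -0.34 to -0.03 (without normal protein replicate 6), Ccl6 from -0.28 to -0.01 (without high protein replicate 3), Ccl2 from -0.31 to -0.06 (without high protein replicate 6) and Ccl28 from 0.25 (without normal protein replicate 6) to 0.69. Ccl5 ran from -0.68 to -0.44, Ackr3 from -0.32 to -0.22, Cxcl16 from 0.29 to 0.48 and Ccr6 from 0.39 to 0.67. Of these 12 fits, the unadjusted limma p was under 0.05 in 12 for Ackr3, 11 for Ccl5, 7 for Cxcl16 and 4 for Ccr6.

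Pairing of arrays by replicate number was not clear: deviations of same-numbered arrays correlated between -0.11 and 0.38. Replicates 1 and 4, at 0.38 and 0.21, matched their own number best. The position score also differed within same-numbered arrays, as in replicate 3 at 1.71 (normal protein) and -4.72 (high protein). Absence of pairing is therefore not shown. With the number as a replicate block 0 members and 0 genes were called, 4 members had an unadjusted limma p under 0.05, 1 higher and 3 lower, and the median member difference was -0.14, which a balanced block leaves in place. Over the other fits to all arrays that median ran from -0.18 (signal minus local background) to -0.00 (median scaling), with -0.07 under the position score, and it was -0.05, -0.11 and -0.18 within the slides. Genes below the filter are limited by signal over background and have no fold here.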
